A study of Homo sapiens with 3 samples.

Results

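Barcodes that carried few transcripts and little mitochondrial RNA were examined in single-cell RNA data of HCT116 H2B-GFP cells grown in a 2-channel organ-on-chip. They were chosen in all 3 libraries as barcodes with at least 500 detected genes, 1000 to 3000 UMIs (unique molecular identifiers, each standing for 1 captured transcript) and at most 5% of UMIs from the 13 mitochondrially encoded MT- genes. The rule kept 2148 of the 54788 listed barcodes, and these are called low-mitochondrial shallow barcodes below. They were set against 806 barcodes of the same libraries with the same limits on genes and UMIs but over 5 to 20% MT- UMIs (other shallow barcodes), and against 33684 barcodes with over 5000 UMIs and at most 20% MT- UMIs (deep barcodes). The members were chosen by their UMIs, genes detected and MT- share, so those measures are given as descriptions with no test.

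HCT116 is a human colorectal carcinoma line, and here it carried a GFP label on histone H2B. 1 library came from the bottom channel of chips under peristalsis-like stretch, where the invaded cells are, 1 from the top channel of stretched chips and 1 from the top channel of chips without stretch. The stretch lasted 6 days, all cells were taken off with trypsin, and GFP-positive cells were sorted before droplet capture. All 3 libraries thus share the line, the label, the sort and the droplet protocol, and each condition has 1 library. Values for 3 libraries stand in the order stretched bottom, stretched top and not stretched top throughout.

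In a droplet library each barcode marks the RNA caught in 1 droplet, whether that is a whole cell, a damaged cell or loose material, and the share of UMIs from the mitochondrial genome is a common quality measure. Within a cell, messages are not spread evenly. Those for secreted proteins and for proteins of the plasma membrane and lysosome are translated by ribosomes held on the endoplasmic reticulum (ER), messages for ribosomal proteins, keratins and most enzymes are translated by free ribosomes in the cytosol, and MT- messages stay inside mitochondria. Transcripts of very long genes spend much of their life as unspliced RNA in the nucleus. Of 10 listed nuclear-retained RNAs, MALAT1 and NEAT1 among them, 0 could be analysed here, so nuclear RNA was not measured directly, and whether intronic reads were counted is not given in the sources used here.

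Low-mitochondrial shallow barcodes numbered 165 of 3513, 775 of 25169 and 1208 of 26106. They made up 19.2% (95% Clopper-Pearson interval 16.6 to 22), 25.5% (24.0 to 27.1) and 19.7% (18.7 to 20.7) of all barcodes with 1000 to 3000 UMIs. Intervals cover counting error only. Of the barcodes that pass 500 genes, 1000 UMIs and at most 20% MT- UMIs, they were 8.46%, 3.85% and 7.02%, with 0.341%, 0.553% and 0.882% of the UMIs. Their median depth was 1475, 1359 and 1410 UMIs, against 1457, 2194 and 1995 in other shallow barcodes and 45340, 10339 and 12111 in deep barcodes. The 2 shallow classes thus had like depths in the stretched bottom library, while in both top libraries the low-mitochondrial ones were shallower. They held a median of 860, 734 and 796 genes.

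The median MT- share of low-mitochondrial shallow barcodes was 0.389%, 1.70% and 1.28%, far inside the 5% limit. Of them, 105 of 165, 181 of 775 and 454 of 1208 had under 1% MT- UMIs, and 13, 0 and 2 had none at all. Deep barcodes had median MT- shares of 4.14%, 10.4% and 9.87%, and 68.5%, 5.10% and 7.63% of deep barcodes fell at or under the 5% limit. A low MT- share was therefore common at depth in the stretched bottom library and uncommon at depth in both top libraries. Just outside the depth limits, barcodes of at most 5% MT- numbered 36, 61 and 100 at 3000 to 5000 UMIs, and 93, 375 and 625 at 500 to 1000 UMIs with at least 500 genes. Among the MT- UMIs that remained, MT-CO2, a subunit of cytochrome c oxidase, was the most frequent gene in low-mitochondrial shallow barcodes, with 27.6, 26.9 and 28.8% of MT- UMIs against 29.7, 24.8 and 26.3% in other shallow and 30.6, 28.1 and 28.3% in deep barcodes.

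**Figure D1:**
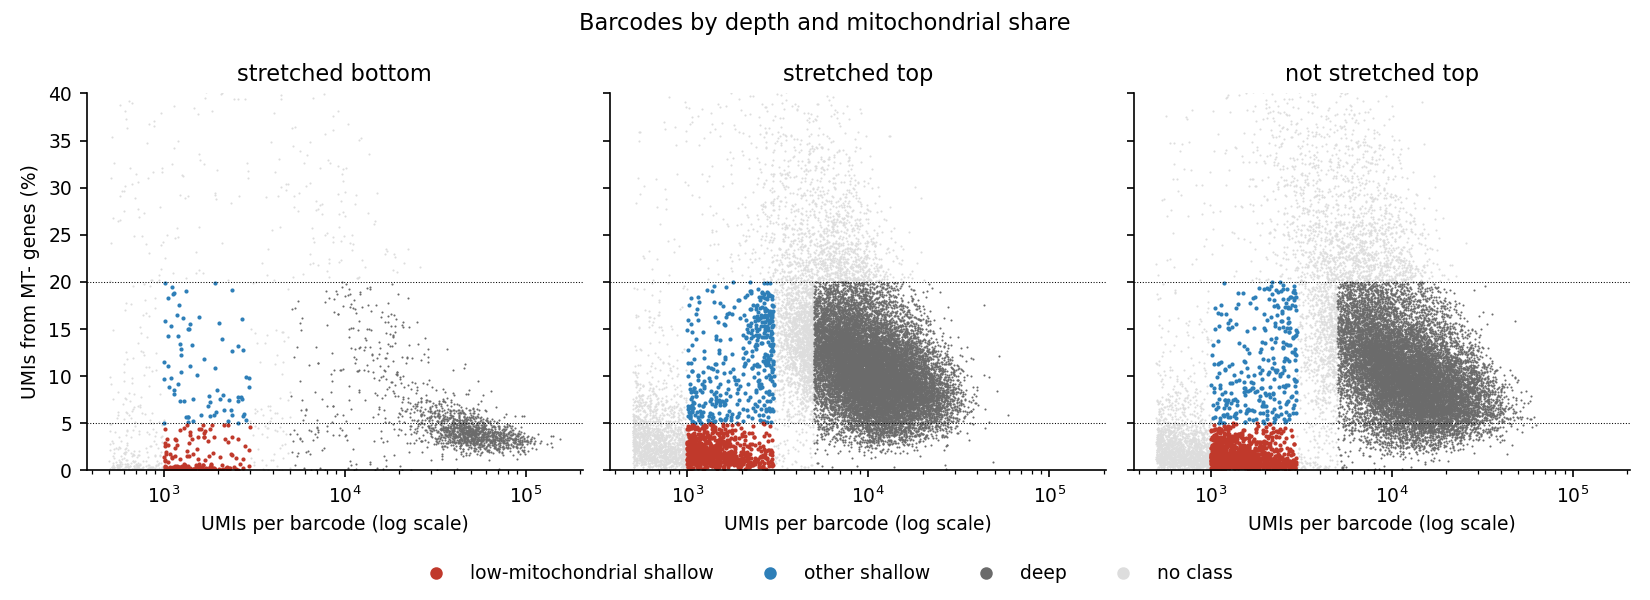
Each point is 1 barcode, placed by its UMIs (log scale) and its share of UMIs from MT- genes (%), in 1 panel per library; colours mark low-mitochondrial shallow, other shallow and deep barcodes, grey points belong to no class, and dotted lines stand at 5% and 20%. Barcodes above 40% are not shown. The low-mitochondrial shallow barcodes fill the lower left, at median MT- shares of 0.389%, 1.70% and 1.28% in the stretched bottom, stretched top and not stretched top libraries.

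Some barcode sequences recurred between libraries. Of low-mitochondrial shallow barcodes, 2, 4 and 15 had a sequence that also occurred in another library (1.21%, 0.516% and 1.24%), and 1, 2 and 9 of these were deep barcodes there. Recurring sequences made up 2.6%, 0.93% and 0.669% of other shallow barcodes and 6.17%, 0.733% and 0.82% of deep barcodes, so the largest share was that of deep barcodes of the stretched bottom library, 101 of 1637. No low-mitochondrial shallow barcode lay within 1 base of a deep barcode of its own library (0 of 165, 0 of 775 and 0 of 1208).

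For tests, UMIs were summed per library and class with MT- genes left out, and the sums were compared with edgeR's quasi-likelihood test with the library as a block, Benjamini-Hochberg adjusted over all genes tested and called at adjusted p under 0.05. The 3 libraries are of 3 conditions, so they serve as 3 pairs for the difference between classes and not as replicates of a condition. The sums held 258256, 1143081 and 1845304 UMIs of nuclear genes for low-mitochondrial shallow barcodes, 119622, 780073 and 525567 for other shallow barcodes and at least 72729986 for deep barcodes, so the smallest sums limit the precision. Against other shallow barcodes, 1824 genes were higher and 2035 lower of 7843 tested, which is 49.2% called, 23.3% higher and 25.9% lower. Against deep barcodes, 1620 were higher and 2549 lower of 14068 tested, which is 29.6% called, 11.5% higher and 18.1% lower. So many genes differ that the counts below are to be read against these shares.

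Scaling changed the balance between directions. Log2 fold changes below use TMM factors, and under them the median gene stood at −0.01 against other shallow and −0.09 against deep barcodes. With totals of nuclear UMIs in place of TMM, the median gene stood at −0.31 and −0.40, with 841 higher and 2794 lower calls (23.1% higher, against 47.3% with TMM) and 665 higher and 3866 lower calls (14.7% higher, against 38.9%). CPM values divide a gene's UMIs by all UMIs of nuclear genes and so are on the scale of totals, and a log2 fold change differs from the log2 ratio of the CPM values beside it. The comparison with deep barcodes also rested on both top libraries. It gave 60 higher and 523 lower calls without the stretched top library, 51 and 379 without the not stretched top library, and 2857 and 3358 without the stretched bottom library. Against other shallow barcodes the same 3 settings gave 672 and 1094, 677 and 1074, and 2166 and 2300 higher and lower calls. Counts within a list when a library is left out are to be read against these totals.

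The label of colon epithelial cells held in these barcodes at the level of keratins. KRT8, which with KRT18 forms the intermediate filaments of simple epithelia, had 1557, 1298 and 1316 CPM in low-mitochondrial shallow barcodes, 1237, 926 and 1185 in other shallow and 1011, 1066 and 1040.2 in deep barcodes. Its levels in low-mitochondrial shallow barcodes lay above both other classes in every library (log2 fold change 0.61 against other shallow, edgeR adjusted p = 4.1e-05, and 0.63 against deep, adjusted p = 0.09, not called). KRT18 was 1649.5, 1550.2 and 1309 CPM, against 1538, 1267 and 1482 in other shallow and 1531, 1443 and 1289 in deep barcodes, and these ranges overlap (log2 fold change 0.36, adjusted p = 0.0085, and 0.07, adjusted p = 0.61, with totals in place of TMM). EPCAM, the epithelial cell adhesion molecule (chr2:47345158-47387601, hg38), was present too, at 259, 191 and 205 CPM, but below the 468, 463 and 439.5 CPM of other shallow and the 524, 434 and 429 CPM of deep barcodes. Neither comparison showed overlap, with log2 fold changes of −0.82 (adjusted p = 1.5e-05) and −0.87 (adjusted p = 0.0037). Summed over the 18 epithelial markers, the level was 5467, 5316 and 5109 CPM in low-mitochondrial shallow, 5802, 5498 and 6134 in other shallow and 5545, 5495 and 5519 in deep barcodes, so the sum differed little while its parts moved apart.

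Markers of other cell types stayed low. In low-mitochondrial shallow barcodes 5 of 17 endothelial, 5 of 16 fibroblast, 7 of 16 leukocyte and 3 of 10 red cell and platelet markers had a UMI in any library. PECAM1, CDH5 and KDR of endothelium, COL1A2, COL3A1 and DCN of fibroblasts, and PTPRC, CD3D and CD14 of leukocytes were at 0 UMIs. In other shallow barcodes 6, 7, 8 and 3 markers of the same 4 lists had a UMI, and in deep barcodes all 17, 16, 16 and 10. The sums of deep barcodes are far larger, so these counts of markers are not at equal depth. The endothelial list summed to 73.6, 69.1 and 84.5 CPM, against 134, 106 and 135 in other shallow and 142, 123 and 150.4 in deep barcodes, nearly all of it EGFL7 (65.8, 63 and 77.5 CPM), the only marker of that list tested against other shallow barcodes (log2 fold change −0.28, adjusted p = 0.22). The fibroblast list summed to 3.87, 33.2 and 30.3 CPM, against 50.2, 67.9 and 85.6 in other shallow and 17.3, 60.1 and 73.3 in deep barcodes, the leukocyte list to 0, 16.6 and 16.3, against 8.36, 16.7 and 17.1 in other shallow and 10, 12.2 and 13.7 in deep barcodes, and the red cell and platelet list to 62, 21.9 and 20.6, against 100.3, 62.8 and 43.8 in other shallow and 97.3, 53.9 and 46.1 in deep barcodes. The 1 fibroblast and the 1 red cell marker tested against other shallow barcodes were both lower. The red cell marker was HBG2, with a log2 fold change of −1.26. By its annotated span it is among genes over 200 kb, whose median was −1.41. FN1, fibronectin, had a log2 fold change of −1.27 (adjusted p = 0.0021), and no leukocyte marker was tested. Against deep barcodes 0 were higher and 1 lower of 6 endothelial and of 6 fibroblast markers, and 0 higher and 1 lower of 3 red cell and platelet markers. None of these 4 lists was higher as a sum in low-mitochondrial shallow than in deep barcodes, except the leukocyte list in both top libraries, where 19 and 30 UMIs stood behind the sum. LYZ, lysozyme, was the leukocyte marker called higher than in deep barcodes (2.09, adjusted p = 6.3e-05).

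Messages for secreted and membrane proteins were scarce. Of the 50 listed genes whose messages are translated at the ER, 45 passed the filter on low counts against other shallow barcodes and 42 of these were lower, 0 were higher, with a median log2 fold change of −1.31 beside −0.01 for all genes tested (25.9% of all genes were lower). Against deep barcodes 41 of 50 were lower and 1 higher, and the median was −0.87 beside −0.09 (18.1% of all genes were lower). The median log2 ratio of CPM over the list was −1.39, −1.58 and −1.57 against other shallow and −0.83, −1.18 and −1.21 against deep barcodes in the 3 libraries. CD9, a tetraspanin of the plasma membrane, had 174, 189 and 133 CPM, against 468, 509 and 346 in other shallow and 415, 441 and 403 in deep barcodes. CD63, a tetraspanin of late endosomes, had 275, 327 and 319 CPM, against 644, 742 and 694 in other shallow and 578, 654 and 731 in deep barcodes. ITGB1, the beta-1 integrin chain, had 108, 102 and 106 CPM, against 201, 258 and 263 in other shallow and 305, 212 and 193 in deep barcodes. For each of these 3 genes, shown for their high counts after values were seen, every library's low-mitochondrial shallow barcodes lay under every value of both other classes.

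LAMB3, a chain of the basement membrane laminin 332, had the largest difference of the ER list against other shallow barcodes, at 7.74, 14 and 8.67 CPM, against 58.5, 51.3 and 59 in other shallow and 24.1, 23.5 and 29.2 in deep barcodes (log2 fold changes −2.05, adjusted p = 4.5e-06, and −1.01, adjusted p = 0.0019). CDH1, E-cadherin, the adhesion protein of epithelial junctions, followed at 11.6, 12.2 and 18.4 CPM, against 25.1, 65.4 and 83.7 in other shallow and 27.2, 44.8 and 55.7 in deep barcodes (−1.88, adjusted p = 3.7e-06, and −1.32, adjusted p = 1.3e-06). All 5 tested laminin chains, a family chosen after values were seen, were lower than in other shallow barcodes (median −1.59). TFRC, the transferrin receptor (−0.05), SLC7A5, an amino acid transporter (−0.16), and TSPAN3, a tetraspanin (−0.44), were the 3 members not called against other shallow barcodes, and TSPAN8, another tetraspanin, was the 1 member higher than in deep barcodes (1.47, adjusted p = 4.5e-06). The count against deep barcodes was 7 of 50 lower without the stretched top library and 12 of 50 without the not stretched top library. Over all genes 523 of 14096 and 379 of 13946 were lower there, and the list's medians were −0.92 and −0.88. Against other shallow barcodes the list's count ranged from 35 of 41 to 45 of 49 when 1 library was left out.

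The genomic span of ER-list members can be set beside their fold changes. Taking for each member the median log2 fold change of all genes in its class of span, the median over members was 0.17 against other shallow barcodes, and the median of the members' own fold changes was −1.31. Its 5 members spanning under 20 kb were all lower, with a median of −1.05, and the 40 longer ones had a lower median, −1.36. Counted per barcode, with every barcode thinned to 800 nuclear UMIs, the list gave 2.76 ± 2.47, 2.35 ± 2.23 and 2.37 ± 2.1 UMIs in low-mitochondrial shallow barcodes (mean ± SD over barcodes), 7.01 ± 3.56, 6.74 ± 3.93 and 6.07 ± 3.5 in other shallow and 5.49 ± 3.51, 5.58 ± 2.68 and 5.78 ± 2.79 in deep barcodes. The spreads of single barcodes overlap widely, while the means of low-mitochondrial shallow barcodes were under those of both other classes in each library.

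Chaperones that fold proteins inside the ER were lower too. HSPA5, also called BiP, the main HSP70 of the ER (chr9:125234853-125241330, hg38), had 167, 125 and 149 CPM in low-mitochondrial shallow barcodes, against 594, 841 and 537 in other shallow and 460.2, 356 and 404 in deep barcodes. The 3 values lay far under both other classes (log2 fold changes −1.90, adjusted p = 4.1e-11, and −1.24, adjusted p = 1.4e-05). DNAJB9, an ER co-chaperone, had 15.5, 7.87 and 8.13 CPM, against 16.7, 46.1 and 24.7 in other shallow and 18.7, 18.7 and 19.2 in deep barcodes (−1.58, adjusted p = 0.00076). Of the list of ER chaperones and unfolded protein response genes, 16 of 24 tested were lower and 1 higher than in other shallow barcodes (median −0.89), and 14 of 26 were lower and 3 higher than in deep barcodes (median −0.63). The members that were higher are not ER proteins. ASNS, the cytosolic asparagine synthetase, had a log2 fold change of 0.64 against other shallow barcodes, and ATF4, a transcription factor of the stress response, TRIB3, a pseudokinase, and CHAC1, a glutathione-degrading enzyme, had log2 fold changes of 0.97, 0.50 and 1.18 against deep barcodes. DDIT3, another stress transcription factor, was not called (0.19 and 0.35). Leaving out the stretched top or the not stretched top library left 8 of 21 and 12 of 22 lower than in other shallow barcodes, and 2 of 26 and 5 of 26 lower than in deep barcodes.

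Antigen presentation genes also split between membrane and cytosolic products, a division that, like those in the next paragraphs, was described after values were seen. HLA-B, a class I heavy chain, had 54.2, 101 and 109 CPM in low-mitochondrial shallow barcodes, against 159, 408 and 352 in other shallow and 109.8, 284 and 332 in deep barcodes (−1.51, adjusted p = 4.7e-09). Near-identical HLA genes can share reads, so the split between them is uncertain. B2M, the secreted class I light chain (−0.86), and TAPBP, the ER membrane protein tapasin (−0.98), were lower with them, and 7 of 12 tested genes were lower than in other shallow barcodes and 8 of 15 lower than in deep barcodes. PSME1 (0.68) and PSME2 (0.83), cytosolic activators of the proteasome, were the 2 that were higher than in other shallow barcodes. Neither call held without the stretched top or the not stretched top library, where 6 of 10 and 6 of 11 genes were lower. Against deep barcodes, 0 of 15 and 2 of 15 were lower without the stretched top and the not stretched top library.

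Epithelial markers split along the same line. Against other shallow barcodes 8 of 12 tested were lower and 3 higher (median −0.84). The 8 included the membrane proteins EPCAM, CDH1, CLDN3, CLDN4, CLDN7 and OCLN, and the transcription factor ELF3 (−0.65), and the 3 were the cytoplasmic keratins KRT8, KRT18 and KRT19 (0.31, adjusted p = 0.019). With totals in place of TMM, KRT8 alone was higher, and KRT19 had 1529, 1838 and 1805 CPM, against 1613, 1641 and 1895 in other shallow barcodes. When the stretched top library was left out, 5 of 10 epithelial markers were lower and 1 higher. With other shallow barcodes limited to 5 to 10% MT-, 4 of 9 epithelial markers were lower and 0 higher. CLDN4, a claudin of tight junctions, had 105, 98 and 88.9 CPM, against 259, 372 and 310.1 in other shallow and 256, 240.1 and 269 in deep barcodes, with no overlap (−1.48, adjusted p = 5.9e-09, and −1.16, adjusted p = 1.4e-05). Against deep barcodes 6 of 17 were lower and 1 higher, the transcription factor CDX2 (0.76). The list's median of −0.22 changed sign under other settings, and 0 and 2 were lower without the stretched top and the not stretched top library.

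Smaller lists held single members with membrane or secreted products that were lower, beside others that were not. Over all genes tested against other shallow barcodes 25.9% were lower and 23.3% higher, and the p53 list lay under both shares. Against deep barcodes 18.1% of all genes were lower and 11.5% higher. The location of single products is a description made after values were seen. Of 19 glycolysis genes, 6 were higher and 3 lower than in other shallow barcodes. The lactate transporters SLC16A1 (−0.85) and SLC16A3 (−1.21) were lower, with SLC16A3 at 85.2, 46.4 and 50.9 CPM against 293, 132 and 135 in other shallow and 148, 107 and 115 in deep barcodes. The third was ENO2, a neuronal-type enolase and a cytosolic enzyme, at 23.2, 30.6 and 42.8 CPM, against 58.5, 156 and 79.9 in other shallow and 18.7, 40.6 and 37.5 in deep barcodes (−1.30, adjusted p = 3.4e-05). In the list of metallothioneins and iron genes, 8 of 14 were higher and 1 lower, the cystine transporter SLC7A11 (−1.20, adjusted p = 0.00084), while TXN, thioredoxin, a cytosolic protein, was 0.86 (adjusted p = 1.6e-07). Of 24 p53 targets, 3 were higher and 5 lower. GDF15, a secreted cytokine (−1.15), and the death receptors TNFRSF10A (−1.24) and TNFRSF10B (−1.09) were among those lower, as was BTG2, an intracellular regulator of proliferation (−1.58), and CDKN1A, the kinase inhibitor p21 (0.63), and BAX (0.56) were among those higher. Of 22 cholesterol genes, 8 were lower and 4 higher. SREBF2, a transcription factor made as an ER membrane protein, was among those lower (−1.49), and MVK, the cytosolic mevalonate kinase, among those higher (1.01). Solute carriers outside the mitochondrial SLC25 family, a group chosen after values were seen, gave 49 lower and 3 higher of 93 (median −0.79). The SLC25 carriers, whose products enter mitochondria, gave 7 lower and 11 higher of 26 (median 0.21), with 7 of 26 near the share of all genes that were lower. Taking for each SLC25 carrier the median of its class of span gave 0.40. The family's median log2 ratio of CPM was −0.17, −0.50 and 0.06 in the 3 libraries. Against deep barcodes 68 of 226 other carriers were lower and 5 higher (median −0.74), and 8 of 43 SLC25 carriers were lower and 7 higher (median −0.01). The medians of the glycolysis and p53 lists, 0.17 and 0.07, changed sign under other settings. Without the stretched top library, 2 of 19 glycolysis genes, 1 of 16 p53 targets and 4 of 19 cholesterol genes were lower, and 4 of 13 metallothionein and iron genes higher. Without the not stretched top library 3 of 19 glycolysis genes were higher, 2 of 21 p53 targets lower, and 1 of 21 cholesterol genes higher and 5 lower. Against deep barcodes, glycolysis gave 8 higher and 2 lower of 19 (median 0.50), metallothioneins and iron 0 higher and 1 lower of 15 (median 0.29), p53 targets 3 higher and 5 lower of 27 (median −0.07) and cholesterol genes 4 higher and 7 lower of 23 (median −0.27). Leaving out the stretched top library gave these lists 0, 0, 0 and 0 higher and 0, 0, 1 and 1 lower calls. With deep barcodes limited to at most 5% MT-, 10 of 27 p53 targets were higher and 3 lower (median 0.19).

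Hypoxia-induced genes were lower than in other shallow barcodes, with 8 of 16 tested lower, 0 higher and a median of −0.73. P4HA1, a collagen prolyl hydroxylase of the ER, had 19.4, 31.5 and 35.2 CPM in low-mitochondrial shallow barcodes, against 41.8, 304 and 139 in other shallow and 67, 104 and 97.4 in deep barcodes (−2.24, adjusted p = 1.9e-09). ANGPTL4, a secreted regulator of lipid metabolism, had 3.87, 7.0 and 9.75 CPM, against 25.1, 56.4 and 78 in other shallow and 12.8, 17.5 and 28.4 in deep barcodes (−2.65, adjusted p = 7.7e-08). NDRG1, an intracellular hypoxia-response gene, went in opposite directions by comparison. It had 92.9, 187 and 157 CPM, against 92, 687 and 358 in other shallow and 50.9, 152 and 125 in deep barcodes (−1.11, adjusted p = 4.5e-06, and 0.70, adjusted p = 0.0065). Against deep barcodes 6 of 22 were lower and 1 higher, and the median of −0.09 changed sign under other settings. With deep barcodes limited to at most 5% MT-, 6 of 21 were higher and 3 lower (median 0.25). When the stretched top library was left out, 2 of 9 were lower than in other shallow barcodes, and 3 of 22 and 2 of 22 lower than in deep barcodes without the stretched top and the not stretched top library.

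**Figure D2:**
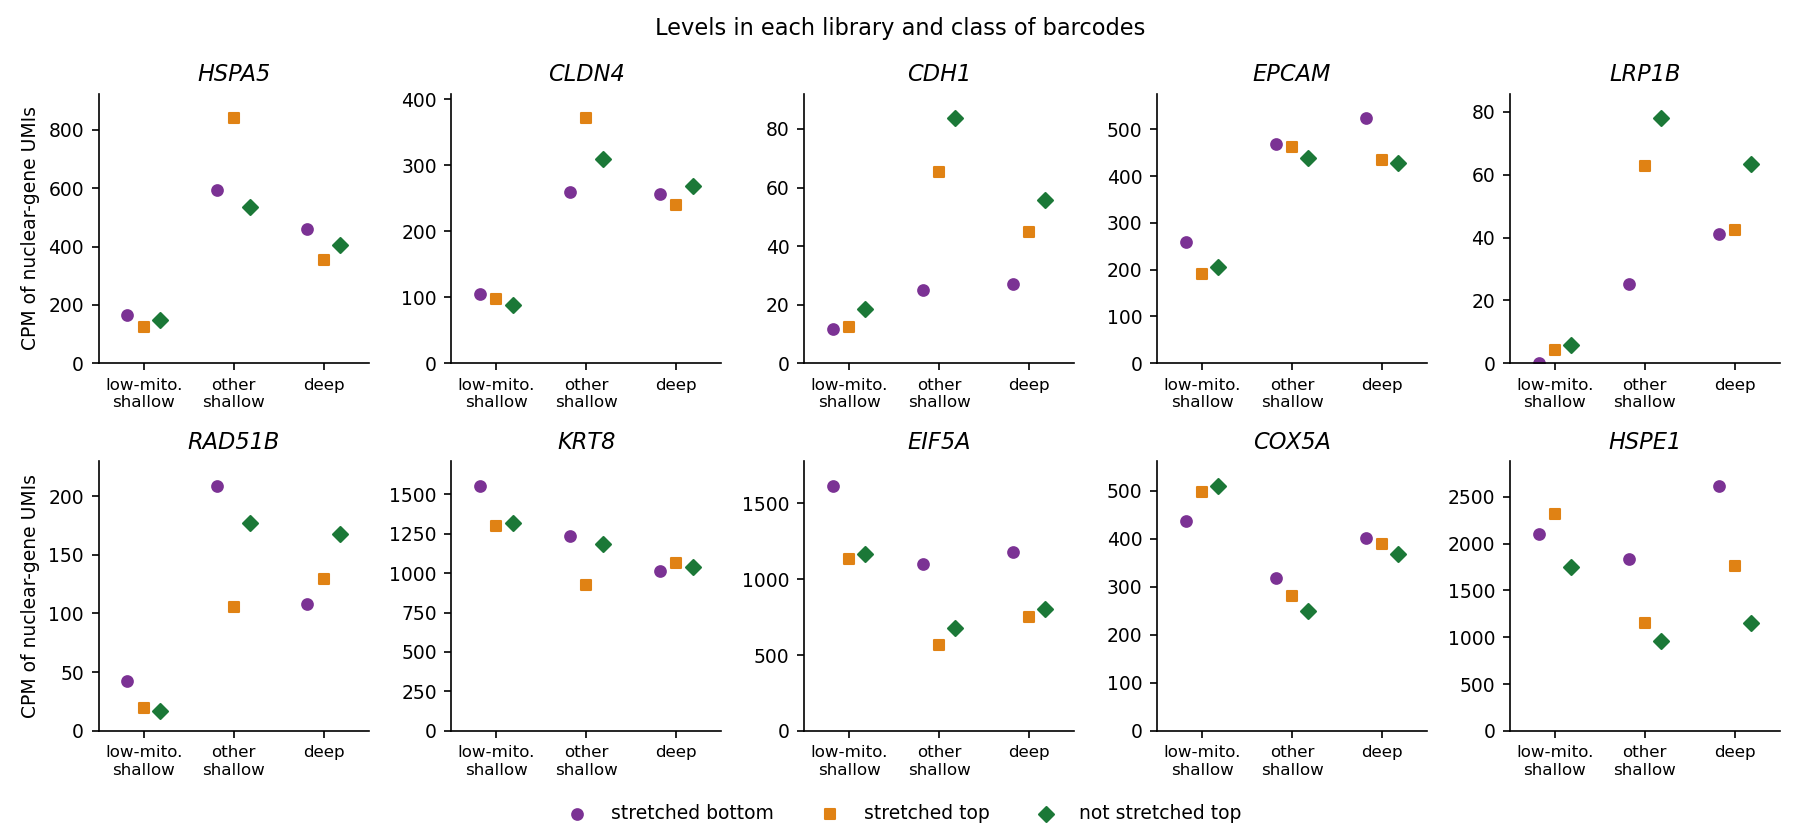
Level of 10 genes in CPM of nuclear-gene UMIs (vertical axes, from 0) in low-mitochondrial shallow, other shallow and deep barcodes; each point is the sum over 1 library's barcodes of a class, with 1 symbol per library. HSPA5, CLDN4, CDH1, EPCAM, LRP1B and RAD51B lay lowest in low-mitochondrial shallow barcodes, and KRT8 and COX5A highest.

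Transcripts of long genes were the other scarce group. Genes spanning over 200 kb from first to last base in GENCODE release 29 gave 2.86, 2.1 and 2.07% of nuclear UMIs in low-mitochondrial shallow barcodes, 6.99, 5.35 and 6.44% in other shallow and 3.97, 4.89 and 5.64% in deep barcodes. The ratio of low-mitochondrial to other shallow barcodes was 0.41, 0.393 and 0.322, and to deep barcodes 0.722, 0.429 and 0.367. Genes spanning under 5 kb gave 25.8, 28 and 27.2%, against 21.9, 24.5 and 22.5% in other shallow and 25.9, 24.5 and 23.2% in deep barcodes. Above 20 kb the ratio was lower in each longer class of span, in all 3 libraries and both comparisons. The step from 20 to 50 kb to 50 to 100 kb was smallest against deep barcodes of the stretched bottom library, at 1.05 and 1.02. Of genes over 200 kb, 507 were lower and 6 higher of 628 tested against other shallow barcodes (median −1.41), and 672 lower and 8 higher of 1156 against deep barcodes (median −1.27). Of genes under 5 kb, 41 were lower and 290 higher of 611 against other shallow barcodes (median 0.50), and with totals in place of TMM 80 were lower and 175 higher. With the stretched top or the not stretched top library left out, 142 of 518 and 151 of 570 genes under 5 kb were higher. With the stretched top or the not stretched top library left out, 276 of 1163 and 189 of 1154 genes over 200 kb were lower than in deep barcodes.

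**Figure D3:**
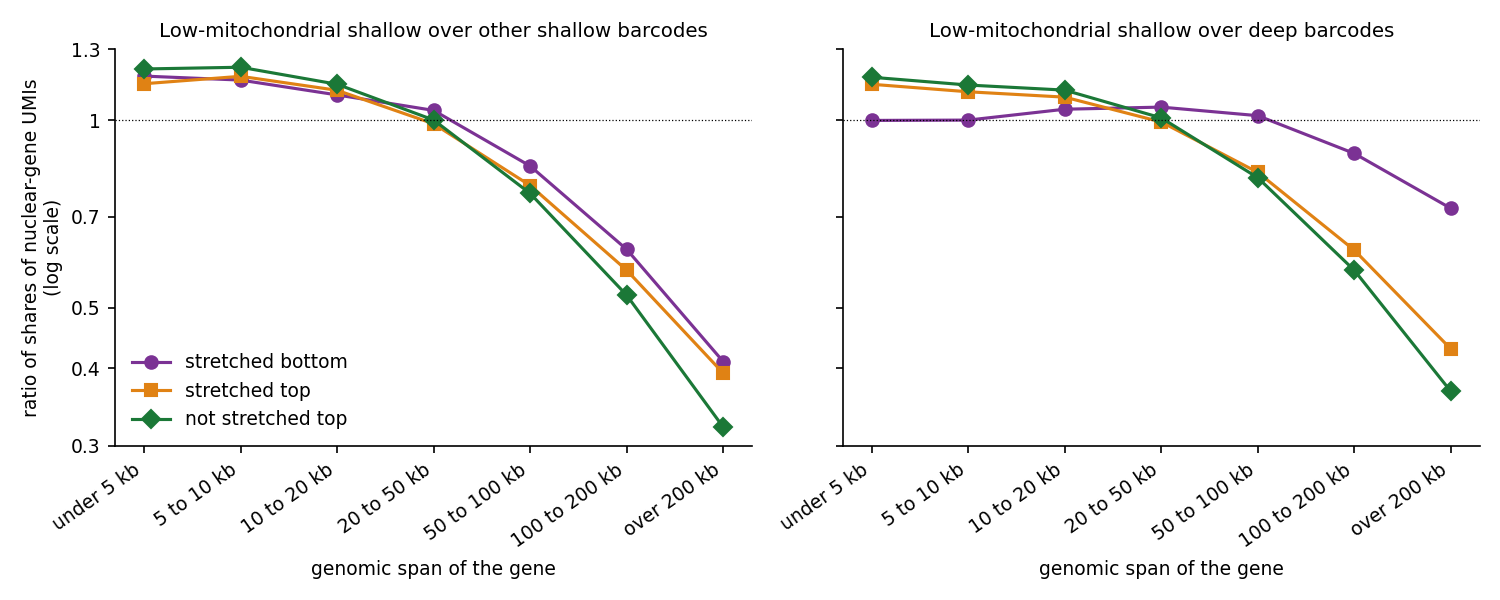
Ratio of the shares of nuclear-gene UMIs (log scale) taken by genes of each genomic span, for low-mitochondrial shallow over other shallow barcodes on the left and over deep barcodes on the right; 1 line per library, dotted line at a ratio of 1. Genes over 200 kb stood at 0.410, 0.393 and 0.322 of their share in other shallow barcodes in the stretched bottom, stretched top and not stretched top libraries.

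LRP1B, a large endocytic receptor that spans 1900279 bases (chr2:140231423-142131701, hg38), had the most negative fold change against other shallow barcodes, at 0, 4.37 and 5.96 CPM, against 25.1, 62.8 and 78 in other shallow and 41.1, 42.3 and 63.4 in deep barcodes. The counts behind the low values were 0, 5 and 11 UMIs (−3.45, adjusted p = 3.1e-09, and −3.13, adjusted p = 1.1e-19). Of the 10 genes with the most negative fold changes against other shallow barcodes, 9 spanned over 200 kb. These were LRP1B, SCN8A, IGF1R, ETV6, NAALADL2, RANBP17, MAML2, TPRG1 and ADAMTS17, at −3.06 to −3.45, and the tenth was TMEM168 (−3.04), which spans 28211 bases and had 0, 4 and 3 UMIs. Against deep barcodes 8 of 10 spanned over 200 kb, among them ACOXL (−2.97) and DOCK3 (−2.61). IGF1R, the receptor of insulin-like growth factor 1, had 3.87, 3.5 and 3.25 CPM, against 25.1, 29.5 and 55.2 in other shallow and 13, 27.3 and 36.5 in deep barcodes. In the list of 43 very long genes, 39 of 40 tested were lower than in other shallow (median −1.76) and 42 of 43 lower than in deep barcodes (median −1.47). RAD51B, a DNA repair gene with a nuclear product that spans 910440 bases, had 42.6, 19.2 and 16.8 CPM, against 209, 105 and 177 in other shallow and 108, 129 and 168 in deep barcodes (−2.57, adjusted p = 1.2e-10). The exceptions were DIAPH3, a formin, against other shallow barcodes (0.03) and NRXN3, a neurexin, against deep barcodes (−1.69, adjusted p = 0.35). The median log2 ratio of CPM over the list was −0.79, −1.73 and −2.16 against deep barcodes, smallest in the stretched bottom library, and without the stretched top or the not stretched top library 29 of 43 and 23 of 43 were lower.

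Genes known to keep introns in the nucleus were mixed. Of 33 tested, 12 were lower and 5 higher than in other shallow barcodes (median −0.27), and of 36, 8 were lower and 2 higher than in deep barcodes (median −0.17). With totals in place of TMM, 21 of 33 and 19 of 36 were lower. ANKRD36, an ankyrin repeat gene with near copies in the genome, so that its count is uncertain, had 34.8, 2.62 and 4.34 CPM, against 33.4, 35.9 and 55.2 in other shallow and 33.1, 35.9 and 38.8 in deep barcodes (−2.50, adjusted p = 1.4e-05), and its stretched bottom value lay within the range of the other classes. CCNL1, cyclin L1 (−1.86), OGT, the O-GlcNAc transferase (−1.36), and NKTR (−1.66) were lower, and SRRM1, a splicing co-activator (0.65), and SRSF6, a splicing factor (0.59), were higher. Immediate early genes, which are induced within minutes and whose messages turn over fast, gave 9 lower and 0 higher of 26 against other shallow barcodes (median −0.43). FOSB, a member of the AP-1 family, had 23.2, 10.5 and 10.8 CPM, against 326, 39.7 and 43.8 in other shallow and 65.4, 48 and 68.1 in deep barcodes, with no overlap (−2.19, adjusted p = 1.6e-06, and −2.01, adjusted p = 8.8e-13). NR4A1, a nuclear receptor, had 31, 15.7 and 13.5 CPM, against 125, 57.7 and 62.8 in other shallow and 44.2, 44.6 and 55.5 in deep barcodes (−1.73, adjusted p = 7e-06). Without the stretched top library 10 of 32 detained-intron and 5 of 22 immediate early genes were lower than in other shallow barcodes, and without the not stretched top library 8 of 34 and 5 of 25. Against deep barcodes 7 of 30 immediate early genes were lower and 2 higher (median −0.16, with a sign that changed under other settings). With deep barcodes limited to at most 5% MT-, 10 of 28 immediate early genes were higher and 1 lower (median 0.30). Without the stretched top or the not stretched top library, 2 of 36 and 1 of 36 detained-intron genes and 2 of 30 and 1 of 30 immediate early genes were lower than in deep barcodes.

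Messages of the cytosolic translation machinery were higher than in other shallow barcodes. All 79 cytosolic ribosomal protein genes were higher than in other shallow barcodes, with a median log2 fold change of 0.60, and 69 of 79 with totals in place of TMM (median 0.31). Without the library as a block it was 21 of 79. Between 72 and 79 of 79 were higher when 1 library was left out or when other shallow barcodes were limited to 10% MT-. RPS20 had 554, 670.1 and 613 CPM, against 201, 495 and 460.5 in other shallow and 469, 543 and 474 in deep barcodes (0.89, adjusted p = 6.9e-06). RPL23 had 918, 1404 and 1311 CPM, against 585, 983 and 868 in other shallow and 784, 1156 and 977 in deep barcodes (0.87, adjusted p = 4e-07), with overlap between libraries but a higher value than both other classes within each. Short genes in general were higher, and taking for each member the median of its class of span, the median over ribosomal protein genes was 0.50, against 0.50 over oxidative phosphorylation genes and 0.40 for the mitochondrial ribosomal proteins below. Against deep barcodes 7 of 79 were called higher (median 0.40), under the 11.5% of all genes tested. The count was 33 with totals in place of TMM, 76 without the stretched bottom library and 0 without the stretched top or the not stretched top library. The median log2 ratio of CPM was 0.02, 0.22 and 0.26. Of 29 translation factors, 24 were higher than in other shallow barcodes (median 0.53, 12 with totals in place of TMM and 13 without the not stretched top library) and 7 of 30 higher than in deep barcodes. EIF5A, the hypusine-bearing translation factor, had 1619, 1133 and 1167 CPM, against 1103, 567 and 681 in other shallow and 1182, 749.8 and 802 in deep barcodes (1.09, adjusted p = 1.4e-08, and 0.74, adjusted p = 0.039). EEF1A1, the most abundant elongation factor, had 6660.1, 6061 and 5733 CPM, against 4957, 6605 and 5293 in other shallow and 5338, 6303 and 5532 in deep barcodes. Its values overlap, and its call (0.42, adjusted p = 0.00052) was lost with totals in place of TMM (0.13, adjusted p = 0.25). Ribosomal protein genes and EIF5A have near-identical processed copies, so their counts are uncertain to that extent.

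Nuclear genes with mitochondrial products were also higher than in other shallow barcodes, while the MT- share was low by the rule. Of 54 nuclear genes of oxidative phosphorylation, 50 were higher and 0 lower (median 0.77), of 44 mitochondrial ribosomal protein genes 41 were higher and 0 lower (median 0.85), and of 32 genes of mitochondrial import and dynamics 20 were higher and 1 lower (median 0.74). COX5A, a nuclear subunit of cytochrome c oxidase, had 438, 498 and 511 CPM, against 318, 281 and 249 in other shallow and 401, 389 and 367 in deep barcodes, with no overlap (1.14, adjusted p = 1.8e-07, and 0.55, adjusted p = 0.09, not called). MRPL15, of the large mitochondrial ribosomal subunit, had 108, 91.9 and 116 CPM, against 92, 48.7 and 38.1 in other shallow and 109.6, 77.1 and 77.5 in deep barcodes (1.38, adjusted p = 6.9e-06), and lay under the deep value in the stretched bottom library. TOMM40, the pore of the outer membrane import complex, had 244, 166 and 232 CPM, against 217, 97.4 and 105 in other shallow and 195, 129 and 144 in deep barcodes (1.11, adjusted p = 6e-06). The 1 lower member was BNIP3L, a receptor for mitochondrial turnover that is also a hypoxia target (−0.61). Against deep barcodes 6 of 54, 12 of 45 and 8 of 32 were higher and 0 lower. Over all genes tested 11.5% were higher than in deep barcodes, so the oxidative phosphorylation count lay near that share. Without the stretched bottom library 50, 43 and 26 were higher, and 0 without the stretched top or the not stretched top library. When the stretched top or the not stretched top library was left out, 30 and 31 of 54 oxidative phosphorylation genes, 21 and 21 of 44 mitochondrial ribosomal protein genes, and 11 and 12 of 32 import genes were higher than in other shallow barcodes. With other shallow barcodes limited to 5 to 10% MT-, these were 27 of 54, 10 of 44 and 5 of 29.

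Chaperones of the cytosol and of the mitochondrial matrix were higher as well. Of 18 heat shock genes, 17 were higher and 0 lower than in other shallow barcodes (median 0.84), and 9 of 20 higher than in deep barcodes (median 0.58). Leaving out the stretched top or the not stretched top library left 11 of 18 and 9 of 18 higher than in other shallow barcodes, and 0 of 20 in the comparison with deep barcodes. With totals in place of TMM, 11 of 18 were higher than in other shallow and 7 of 20 than in deep barcodes. HSPE1, the co-chaperone HSP10 of the mitochondrial matrix, had 2103, 2317 and 1756 CPM, against 1839, 1149.9 and 955 in other shallow and 2622, 1760.4 and 1156 in deep barcodes (1.02, adjusted p = 8.8e-08). AHSA1, an activator of HSP90, had 225, 174 and 164 CPM, against 92, 98.7 and 108 in other shallow and 180.3, 115 and 97.4 in deep barcodes (1.09, adjusted p = 5.2e-06, and 0.80, adjusted p = 0.0016). CACYBP, an HSP90-binding adaptor, had 314, 270.3 and 276 CPM, against 217, 137 and 179 in other shallow and 301, 212 and 176 in deep barcodes (1.06, adjusted p = 2e-06). In families chosen after values were seen, the 8 tested subunits of the cytosolic CCT chaperonin were all higher than in other shallow barcodes (median 0.90), as were 30 of 35 proteasome subunits of the PSMA to PSMD families (median 0.85). Of the actin and tubulin list, 20 of 34 were higher and 5 lower than in other shallow barcodes (median 0.48). ACTB, beta-actin, had 3129, 1953 and 2073 CPM, against 2324, 1442 and 1520.3 in other shallow and 2031, 1413 and 1415 in deep barcodes (0.73, adjusted p = 8.9e-07). The 5 included the large cytoskeletal proteins FLNA (−0.55), VCL (−1.29), MYH9 (−0.77) and MYH10 (−0.90), with VCL, vinculin, at 77.4, 56 and 49.3 CPM against 293, 149.99 and 152 in other shallow and 124, 177 and 172 in deep barcodes. Against deep barcodes 6 of 35 were higher and 4 lower, and without the stretched top or the not stretched top library 13 and 12 of 34 were higher than in other shallow barcodes.

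**Figure D4:**
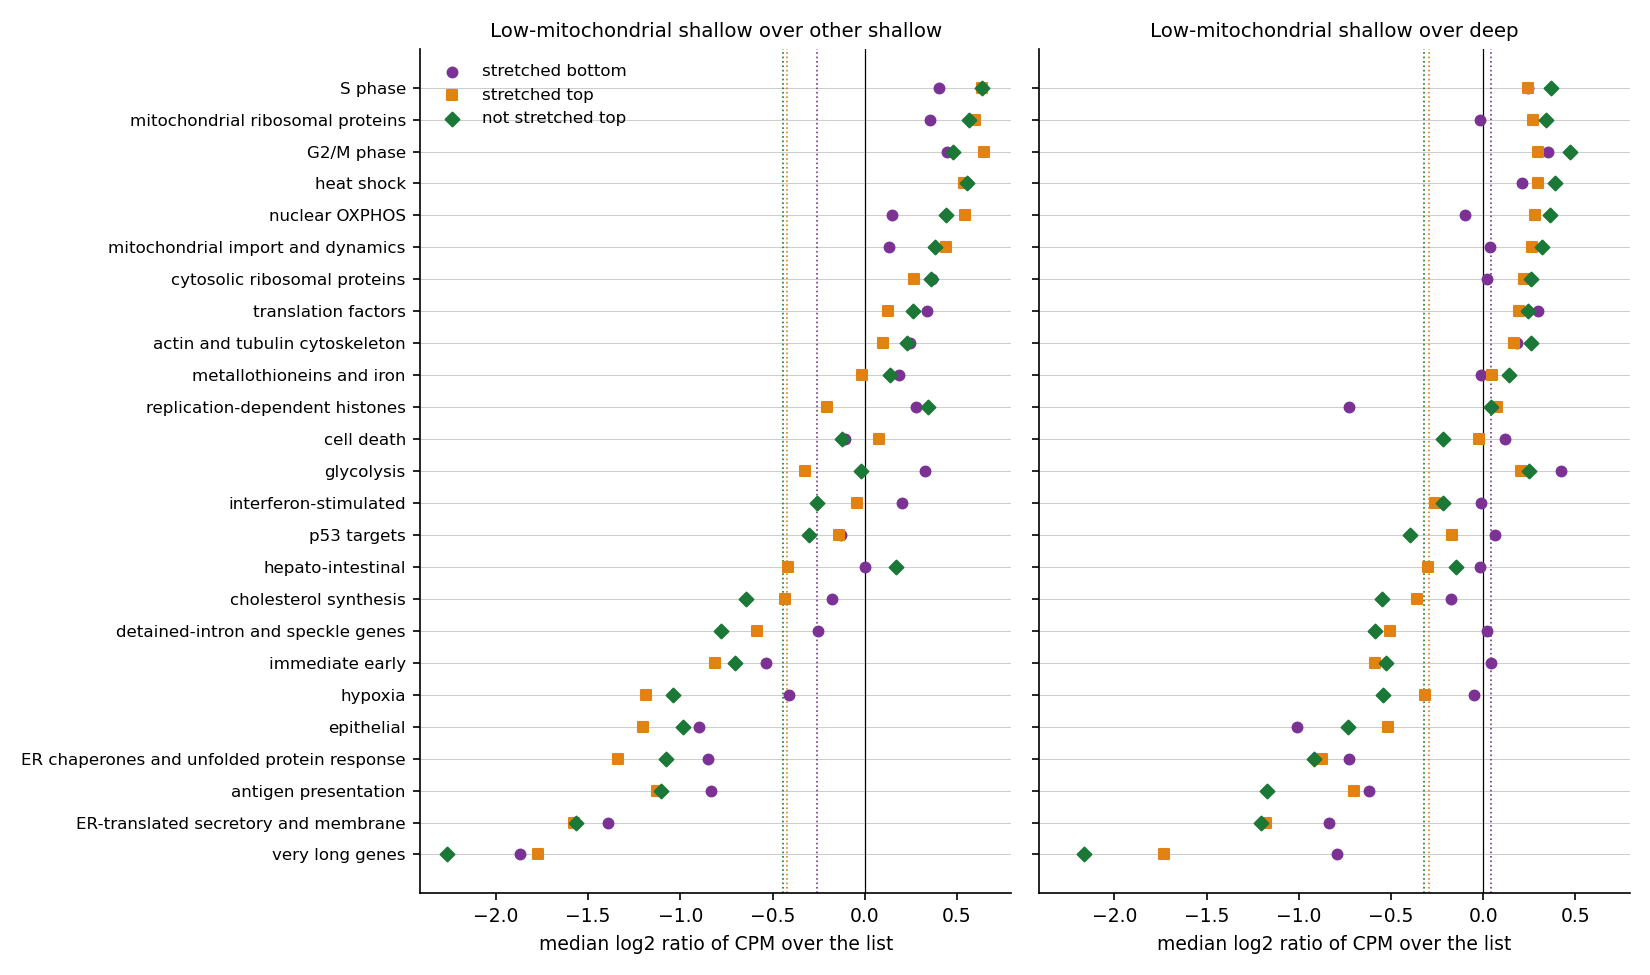
Median log2 ratio of CPM (horizontal axis) over the tested members of each gene list. Low-mitochondrial shallow barcodes are set over other shallow barcodes on the left and over deep barcodes on the right. Both panels draw the lists with at least 5 members tested against other shallow barcodes. Families added after the data were seen, such as laminins, are not drawn. Each library has 1 symbol, and dotted lines stand at the median of all genes with at least 10 CPM in that library. Of the lists drawn, the ER-translated list and the very long genes lay farthest to the left in all 3 libraries against other shallow barcodes, at −1.39, −1.58 and −1.57 and at −1.87, −1.77 and −2.26.

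Cell cycle genes were higher as sums. Of 37 genes of S phase, 28 were higher and 0 lower relative to other shallow barcodes (median 0.88), and of 55 G2/M genes 42 were higher and 0 lower (median 0.85). Against deep barcodes 21 of 40 were higher and 2 lower, and 33 of 55 higher and 0 lower. SKA1, a protein of the kinetochore, had the largest positive fold change against other shallow barcodes, at 34.8, 22.7 and 22.2 CPM, against 16.7, 7.69 and 3.81 in other shallow and 16.2, 10.9 and 12 in deep barcodes (2.04, adjusted p = 0.00024, and 1.28, adjusted p = 2.2e-06). AURKA, the mitotic kinase Aurora A, had 116, 68.2 and 63.4 CPM, against 33.4, 39.7 and 53.3 in other shallow and 47.4, 35 and 35.3 in deep barcodes (0.97, adjusted p = 0.00087, and 1.25, adjusted p = 4.4e-10). HJURP, the chaperone of the centromeric histone, had 38.7, 35.9 and 43.9 CPM, against 25.1, 16.7 and 17.1 in other shallow and 31.7, 22.6 and 23.7 in deep barcodes (1.45, adjusted p = 0.00042). HMGB2, a chromatin protein of dividing cells, had 798, 557 and 745 CPM, against 585, 347 and 462 in other shallow and 700.2, 443 and 475 in deep barcodes (0.92, adjusted p = 1.1e-06, and 0.61, adjusted p = 0.071). PRIM1, the small primase subunit, had 31, 40.2 and 55.3 CPM, against 0, 20.5 and 22.8 in other shallow and 37.2, 27.6 and 30.7 in deep barcodes (1.53, adjusted p = 0.00016). Each of the 10 genes with the largest positive fold changes against other shallow barcodes spanned under 50 kb. They were SKA1, ZMAT5, CENPS, SPDL1, TWNK, CHCHD4, CHAC2, WDR77, DCK and PRIM1, at 1.53 to 2.04. These calls depended on the scaling and the comparison class. With totals in place of TMM, 24 of 55 genes of G2/M were higher and 2 lower than in other shallow barcodes. With other shallow barcodes limited to 5 to 10% MT-, 4 of 46 genes of G2/M and 4 of 27 of S phase were higher, and against deep barcodes of at most 5% MT- 7 of 55 G2/M genes were higher and 4 lower. Without the stretched top or the not stretched top library, 18 of 53 and 20 of 54 G2/M genes and 18 of 33 and 13 of 35 genes of S phase were called higher than in other shallow barcodes, and 1 and 3 of 55 and 2 and 2 of 40 higher than in deep barcodes.

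Few replication-dependent histone genes could be tested, since 6 of 50 passed the filter against other shallow barcodes. HIST1H1E, a linker histone, was one of the 2 that were higher, at 58.1, 47.2 and 47.7 CPM against 50.2, 19.2 and 17.1 in other shallow and 52.1, 27.1 and 34.7 in deep barcodes (1.48, adjusted p = 0.00013). Against deep barcodes 4 of 34 were higher and 1 lower, among them HIST1H2AH, at 11.6, 17.5 and 19 CPM against 7.89, 3.99 and 4.37 in deep barcodes on 3, 20 and 35 UMIs (2.24, adjusted p = 4.2e-12). Histone genes are near-identical, so their counts are uncertain. Of 20 cell death genes, 5 were higher and 2 lower than in other shallow barcodes, and the sign of the list's median of 0.21 changed with the setting. CYCS, cytochrome c, was higher at 554, 543 and 524 CPM against 451, 286 and 335 in other shallow and 606, 433 and 386 in deep barcodes (0.98, adjusted p = 1.5e-06), and APAF1, its partner in the apoptosome, was lower (−0.88, adjusted p = 0.046). Without the stretched top or the not stretched top library 1 of 14 and 1 of 17 were higher and 0 lower. Against deep barcodes 7 of 30 were higher and 1 lower, and 0 of 30 and 0 of 29 without those libraries.

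Barcode by barcode, low-mitochondrial shallow barcodes varied less than the other classes in their ribosomal protein UMIs. At 800 nuclear UMIs each, ribosomal protein UMIs numbered 191 ± 37, 239.5 ± 37.7 and 223 ± 29.4 in low-mitochondrial shallow barcodes (mean ± SD over barcodes), 153 ± 61.4, 204 ± 57.5 and 181 ± 57.8 in other shallow and 183 ± 48.6, 213 ± 47 and 194 ± 45.3 in deep barcodes. Their variance over mean was 7.16, 5.94 and 3.87, against 24.7, 16.2 and 18.5 in other shallow and 12.9, 10.4 and 10.6 in deep barcodes, the smallest of the 3 classes in each library. The rule holds them to a narrower range of MT- shares than both other classes. Ribosomal protein shares of shallow barcodes change with MT- share, as given below, and the part of this in the smaller spread was not tested. For G2/M UMIs the variance over mean was also the smallest of the 3 classes in each library, but by little in the stretched bottom library, at 2.87, 2.82 and 2.64, against 2.94, 4.64 and 3.97 in other shallow and 3.08, 3.98 and 4.21 in deep barcodes. The G2/M mean was higher, and the SD itself was not smaller in every library, with 6.98 ± 4.48, 5.36 ± 3.89 and 6.09 ± 4.01 UMIs in low-mitochondrial shallow barcodes (mean ± SD over barcodes), against 5.79 ± 4.12, 3.83 ± 4.21 and 4.65 ± 4.29 in other shallow and 5.53 ± 4.13, 3.84 ± 3.91 and 3.78 ± 3.99 in deep barcodes. Barcodes with no G2/M UMI at all were fewer, at 1.21, 6.45 and 3.23%, against 5.19, 16 and 8.7% in other shallow and 7.03, 16.3 and 16.5% in deep barcodes. Those with 10 or more were 26.7, 14.6 and 18.7%, against 16.9, 9.77 and 14.7% in other shallow and 16.1, 9.35 and 9.87% in deep barcodes. S phase UMIs had a variance over mean of 1.63, 1.44 and 1.56, against 1.45, 2.47 and 1.88 in other shallow and 1.59, 1.96 and 2.12 in deep barcodes, smallest in both top libraries but not in the stretched bottom library. ER-list UMIs did not follow this, with a variance over mean of 2.21, 2.12 and 1.86 in low-mitochondrial shallow barcodes against 1.81, 2.29 and 2.02 in other shallow and 2.25, 1.29 and 1.34 in deep barcodes.

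At that depth low-mitochondrial shallow barcodes held 547 ± 37.2, 504 ± 35.5 and 524 ± 27 genes, against 588 ± 57.9, 545 ± 55.2 and 569.99 ± 51.3 in other shallow and 558 ± 48.1, 546 ± 47.5 and 568 ± 47.8 in deep barcodes, so their UMIs fell on fewer genes in each library. UMIs of genes over 200 kb had a median of 17, 13 and 14 per barcode, against 26, 25 and 26 in other shallow and 29, 37 and 42 in deep barcodes. Of low-mitochondrial shallow barcodes, 12.1, 2.97 and 2.07% reached their own library's deep median of long-gene UMIs, against 46.8, 37.2 and 34.8% of other shallow barcodes. The ER list reached its deep median of 5 UMIs in 20, 15.5 and 15.1% of low-mitochondrial shallow and 76.6, 68.6 and 63.5% of other shallow barcodes. Both measures were under the deep median in 72.1, 83.2 and 83.7% of low-mitochondrial shallow, 13, 25.1 and 30.4% of other shallow and 25.2, 20.2 and 18.6% of deep barcodes. Long-gene UMIs reached the deep median in 20, 23 and 25 low-mitochondrial shallow barcodes. Of these, 7, 13 and 11 also reached it in ER-list UMIs. That split set their long-gene means apart, at 70.3, 91.2 and 85.6 against 16.5, 13.6 and 15 in the rest. ER-list UMIs, not used for the split, averaged 3.9, 5.17 and 4.28 against 2.61, 2.26 and 2.33. Ribosomal protein UMIs averaged 128, 160 and 147 against 200, 242 and 225.

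The shares of the ER list and of long genes changed along the whole range of MT- shares and not at the 5% limit alone. Among barcodes of 1000 to 3000 UMIs, the ER list took 0.273, 0.228 and 0.263% of nuclear UMIs at 0 to 1% MT-, 0.567, 0.439 and 0.491% at 4 to 5% just inside the limit, 0.70, 0.53 and 0.466% at 5 to 6% just outside it and 0.926, 1.01 and 0.921% at 15 to 20%. Genes over 200 kb took 2.59, 1.72 and 1.84%, 3.36, 3.68 and 2.85%, 5.08, 2.97 and 4.61% and 7.99, 6.65 and 9.48% in the same 4 bins. Ribosomal protein genes went the other way, with 24.6, 30.7 and 28.4% at 0 to 1% MT- and 17, 24.3 and 19.1% at 15 to 20%. In the stretched bottom library the bins from 2 to 20% MT- held 10 to 18 barcodes each, so their steps rest on few barcodes. Both shallow classes are thus cut from the same range of MT- shares, and the sizes of these differences depend on where the limits stand. Each bin is a sum over barcodes. Whether single barcodes change gradually or unlike barcodes mix in changing proportions was not tested.

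**Figure D5:**
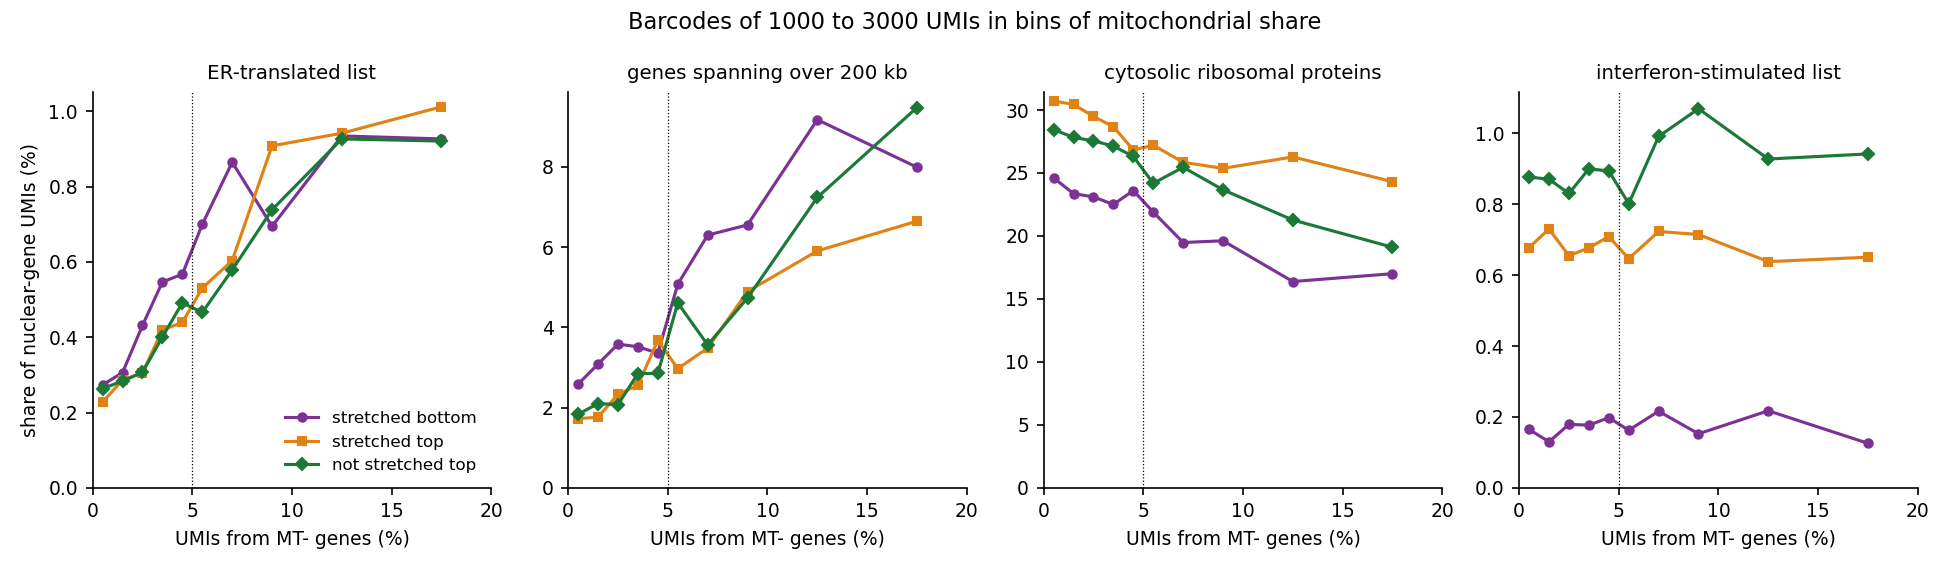
Share of nuclear-gene UMIs (%, vertical axes from 0) taken by 4 groups of genes in barcodes of 1000 to 3000 UMIs, by MT- share (%, bin centres), with 1 line per library and a dotted line at the 5% limit. The ER-translated list climbed from 0.273%, 0.228% and 0.263% in the lowest bin to 0.926%, 1.01% and 0.921% in the highest in the stretched bottom, stretched top and not stretched top libraries, while interferon-stimulated genes were lower in the stretched bottom library than in both top libraries in every bin.

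Differences between libraries seen in deep barcodes appeared in part in low-mitochondrial shallow barcodes. Over the 3188 to 3414 genes with a mean of at least 50 CPM over the deep barcodes of a pair of libraries, the log2 ratio between 2 libraries in low-mitochondrial shallow barcodes had a Pearson r with the same ratio in deep barcodes of 0.385 for stretched bottom over stretched top, 0.325 for stretched bottom over not stretched top and 0.387 for stretched top over not stretched top, against 0.52, 0.544 and 0.451 for other shallow barcodes. The slopes on deep barcodes were 0.47, 0.349 and 0.603 for low-mitochondrial shallow and 0.843, 0.738 and 0.851 for other shallow barcodes, smaller for low-mitochondrial shallow barcodes in each pair. The 3 pairs share libraries, genes are not independent replicates, and the part of unequal depth in r was not tested. Interferon-stimulated genes, which respond to antiviral signals, summed to 1653, 6944 and 8700.5 CPM in low-mitochondrial shallow barcodes, 1797, 6656 and 9525 in other shallow and 1548, 7050.3 and 9213 in deep barcodes, so all 3 classes were low in the stretched bottom library and high in both top libraries. IFI27, an interferon-induced gene, had 27.1, 502 and 587 CPM, against 25.1, 436 and 763 in other shallow and 18.8, 626 and 896 in deep barcodes. IFI6, another interferon-induced gene, had 50.3, 601 and 678 CPM, against 176, 1054 and 1465 in other shallow and 52.5, 1174 and 1531 in deep barcodes, so low-mitochondrial shallow barcodes of both top libraries lay under both other classes. DKK1, a secreted inhibitor of Wnt signalling, had 205, 112 and 91 CPM, against 610.3, 141 and 143 in other shallow and 563, 176 and 169 in deep barcodes, highest in the stretched bottom library in each class. HSPA1B, an inducible HSP70, had 360.1, 37.6 and 77 CPM, against 242, 41 and 68.5 in other shallow and 185, 34.5 and 49.9 in deep barcodes, again highest in the stretched bottom library in each class. These 4 genes were chosen after their values were seen, and with 1 library per condition the order of the libraries has no test. Of 29 interferon-stimulated genes tested against other shallow barcodes, 3 were higher and 5 lower, and of 39 against deep barcodes 4 were higher and 4 lower. Both medians changed sign under other settings, 8 were higher without the stretched bottom library and 1 without either of the others, and 24 of 34 were higher when deep barcodes were limited to 5% MT-. DDX58, the RNA sensor RIG-I, was lower, at 3.87, 20.1 and 27.6 CPM against 8.36, 74.4 and 105 in other shallow and 13.8, 69.2 and 88.4 in deep barcodes (−1.57, adjusted p = 5.4e-06). STAT2, a transcription factor of interferon signalling, had 15.5, 16.6 and 27.1 CPM, against 16.7, 55.1 and 51.4 in other shallow and 11.2, 28.3 and 37.5 in deep barcodes (−0.90, adjusted p = 0.013).

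Hepato-intestinal genes, such as apolipoproteins, gave a contrast between level and spread. Their sum was 19.4, 458 and 497 CPM in low-mitochondrial shallow barcodes, 8.36, 655 and 542 in other shallow and 18.4, 437 and 469 in deep barcodes. At 800 UMIs, 1.21, 8.77 and 11.8% of low-mitochondrial shallow barcodes had a UMI of the list, against 1.3, 6.98 and 10.7% of other shallow and 1.34, 4.69 and 5.25% of deep barcodes. Without thinning the shares were 3.03, 12.4 and 16%, against 1.3, 15.1 and 16.4% in other shallow and 46, 26.1 and 33.4% in deep barcodes. At equal depth, the share with a UMI in both top libraries was above that of deep barcodes, while barcodes with at least 10 such UMIs were 0, 1.16 and 1.08%, against 0, 1.11 and 1.09% of deep barcodes. No class of cells that lacks these genes was defined here, so a background share from loose RNA was not measured, and its part in the difference was not tested. AGR2, an ER disulfide isomerase of mucus-producing cells, had 0, 36.7 and 32 CPM, against 0, 21.8 and 26.6 in other shallow and 0, 23.2 and 29.7 in deep barcodes, and was the 1 of 7 tested genes called higher than in other shallow barcodes (0.84, adjusted p = 0.036). The call was lost under 6 other settings. TTR, transthyretin, had 0, 23.6 and 16.8 CPM, against 0, 21.8 and 13.3 in other shallow and 0.0137, 25.1 and 21.3 in deep barcodes (0.51, adjusted p = 0.27, not called). Against deep barcodes 5 of 21 were higher and 1 lower. APOA2 (1.01) and FABP1 (1.09) were higher and APOB, a very large secreted protein, was lower (−1.98).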

How the data were processed

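The values deposited for the 3 droplet libraries are UMI counts, whole and not normalized, with genes in rows and barcodes in columns. The authors made them with Cell Ranger, and the version, 7.0.0, stands in the file headers. According to the submitters' processing notes the reads were aligned to hg38, and whether introns were counted is not given in the sources used here. All 19912 features were used, of which 19902 were matched by gene ID to GENCODE release 29 for position and span. No doublets were removed, and the files list barcodes with at least 500 UMIs.

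The classes, the 31 gene lists, the tests and the rule for named genes were chosen with earlier results of these data known, so no list is independent support for a direction. The rule named, per comparison, the 10 called genes with the largest fold change each way among those with at least 10 CPM and 1 direction in 3 of 3 libraries, the 2 members of each list farthest from 0 against other shallow barcodes, and EPCAM, KRT8, KRT18, ACTB, EEF1A1 and HMGB2. Other genes were named as exceptions within a list or after their values were seen. Values of some genes the rule named are not reported here.

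UMIs were summed per library and class without the 13 MT- genes and tested with edgeR 4.0.16 (R 4.3.3), with TMM factors, its filter on low counts, the library as a block and Benjamini-Hochberg adjustment. The library pairs the classes because both come from the same droplet run. CPM divides by all UMIs of nuclear genes. For values per barcode, each barcode was thinned to 800 nuclear UMIs with Python 3.11.15 and numpy 2.4.6, and every barcode of the 3 classes had that many. The procedure was tested on simulated counts. Of genes changed 1.5-fold it recovered 11 of 67 against other shallow and 6 of 67 against deep barcodes. At 2-fold it recovered 32 and 35 of 67, and at 4-fold 57 and 51 of 66. Of unchanged genes 4 of 7607 and 1 of 13480 were called. Far fewer genes were changed there than were called in the data, so scaling was not checked for so many changes. Alternatives were DESeq2 1.42.0, other scaling, filters, class limits, no block, and each library left out.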

Additional observations from a re-analysis of the deposited data

Results flagged for a closer look

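Among gene lists with at least 5 tested members, the median log2 ratio of CPM had opposite signs in different libraries in 6 of 25 against other shallow and 9 of 28 against deep barcodes. In 2 and 3 of these the libraries also lay at least 1.5-fold apart, and those 5 are given here. With 1 library per condition these differences were not tested. For glycolysis genes against other shallow barcodes the median was 0.33 in the stretched bottom and −0.32 in the stretched top library, a difference of 0.65. For hepato-intestinal genes against other shallow barcodes it was 0.17 in the not stretched top and −0.41 in the stretched top library, a difference of 0.59. For detained-intron and speckle genes against deep barcodes it was 0.02 in the stretched bottom and −0.59 in the not stretched top library, a difference of 0.61. For immediate early genes against deep barcodes it was 0.04 in the stretched bottom and −0.59 in the stretched top library, a difference of 0.63. For replication-dependent histone genes against deep barcodes the stretched top library had 0.08 and the stretched bottom library −0.73, a difference of 0.80, with few UMIs behind each gene.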

How the results depend on the processing

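Both comparisons kept their directions better than their counts. No gene called against other shallow barcodes was called the opposite way under any alternative, and against deep barcodes 1 was without the stretched bottom library and 1 with deep barcodes limited to 5% MT-. With each library left out in turn, genes called against other shallow barcodes ranged from 672 to 2166 higher and 1074 to 2300 lower, and against deep barcodes from 51 to 2857 higher and 379 to 3358 lower. With DESeq2 the counts were 845 higher and 883 lower against other shallow and 888 higher and 1396 lower against deep barcodes. With no replicate block (the library term left out) 1201 were higher against other shallow, and 297 higher and 1127 lower against deep barcodes. With totals in place of TMM 841 were higher against other shallow, and 665 higher and 3866 lower against deep barcodes. At 1500 to 2500 UMIs the counts were 805 and 993 against other shallow and 707 and 1440 against deep barcodes. After thinning, 917 and 1038 were called against other shallow barcodes, and 409 and 708 with that class limited to 10% MT-. The last 3 settings against other shallow barcodes tested 4333, 4667 and 4388 genes, against 7843, and with the 10% limit 1087 of the 2603 earlier calls still tested were kept. The cause of these changes was not tested.

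Some named genes changed sign. MBD3 stood at −0.11 against other shallow barcodes limited to 10% MT-. Against deep barcodes ENO2 stood at −0.028 with totals and between −0.011 and 0.48 with each library left out, and TTR at −0.22 with totals, −0.014 over 10000 UMIs and −0.61 at most 5% MT-. STAT2 stood at 0.031 with no replicate block, between −0.26 and 0.010 with each library left out, 0.030 at 1500 to 2500 UMIs and 0.60 against deep barcodes of at most 5% MT-. APAF1 stood at 0.16 at 1500 to 2500 UMIs, and BUB1B at −0.21 and HIST2H2AC at −0.053 against deep barcodes of at most 5% MT-. None of these genes was past the threshold in its comparison as reported. Against deep barcodes of at most 5% MT-, the changed values of STAT2 (edgeR adjusted p = 0.046) and TTR (edgeR adjusted p = 0.042) were past it. The cause was not tested.

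After thinning to 500 UMIs, variance over mean in ribosomal protein and G2/M UMIs was again smallest in low-mitochondrial shallow barcodes in all 3 libraries. Depth limits the other shallow class most, at 119622 nuclear UMIs in the stretched bottom library.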
